A study of Mus musculus with 8 samples.

Results

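The genes described here were 10 heat shock and testis chaperone genes of mouse spermatocytes, taken by name from a table of 54532 genes. They were the stress-inducible genes *Hspa1a*, *Hspa1b*, *Hsph1* and *Hsp90aa1*, the constitutive *Hspa8*, the testis-enriched *Hspa1l*, *Hspa4l* and *Dnajb13*, and the transcription factor genes *Hsf1* and *Hsf2*. All 10 passed the filter of an FPKM above 1 in at least one library, and 9 of them were above 1 in every library. FPKM is a fragment count corrected for gene length and library depth, so levels can be compared between genes per length. RNA had been sequenced from spermatocytes of C57BL/6J mice in 8 groups with 1 library each. The genotypes were Mfn2 loxp/loxp without Cre, called MFN2 WT, and Mfn2 loxp/loxp with Stra8-Cre, called MFN2 cKO. Both genotypes thus carried floxed *Mfn2*, and the study's methods also allow controls with a single floxed allele. Stra8-Cre acts in germ cells from the spermatogonial stage onward, so somatic cells of the testis keep *Mfn2*. The mice were at postnatal day (PD) 24 or PD 52, and the stages were pachytene (P) and L/Z, for leptotene and zygotene. Cells had been freed by enzymes at body temperature and separated by sedimentation through a BSA gradient, which sorts mainly by size.

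Chaperones of the HSP70 family bind unfolded stretches of protein and release them in cycles of ATP hydrolysis, with HSP40 proteins delivering clients and HSP110 proteins exchanging the nucleotide. HSP90 acts later, on partly folded clients such as kinases and steroid receptors. Under heat or proteotoxic stress the factor HSF1 trimerises and binds repeats of the unit nGAAn upstream of its targets, while HSF2 is known mainly for its roles in development, including spermatogenesis. Germ cells carry their own chaperones, since the testis is kept below body temperature and meiotic cells are sensitive to heat.

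*Hspa1a* (chr17:34969190-34972156, reverse strand, ENSMUSG00000091971), *Hspa1b* (chr17:34956436-34959238, reverse strand, ENSMUSG00000090877) and *Hspa1l* (chr17:34972703-34979285, forward strand, ENSMUSG00000007033) lie side by side on GRCm38. *Hspa1a* and *Hspa1b* have 1 exon each, and *Hspa1l* has 2. The start sites of *Hspa1a* and *Hspa1l* are 547 bases apart and face away from each other. The 250 bases before each start are shown, from RefSeq on GRCm38.p6, because the first pair is nearly identical while its divergent neighbour is not. Capitals mark GAANNTTC, an inverted pair of heat shock units. The lines for *Hspa1a* (chr17:34972157-34972406, reverse strand), *Hspa1b* (chr17:34959239-34959488, reverse strand) and *Hspa1l* (chr17:34972453-34972702, forward strand) read 5′ to 3′.
Hspa1a: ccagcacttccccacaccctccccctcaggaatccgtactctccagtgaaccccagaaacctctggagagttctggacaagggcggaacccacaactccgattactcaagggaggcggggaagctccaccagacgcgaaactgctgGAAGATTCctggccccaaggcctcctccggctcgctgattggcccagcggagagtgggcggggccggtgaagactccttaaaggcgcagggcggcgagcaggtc
Hspa1b: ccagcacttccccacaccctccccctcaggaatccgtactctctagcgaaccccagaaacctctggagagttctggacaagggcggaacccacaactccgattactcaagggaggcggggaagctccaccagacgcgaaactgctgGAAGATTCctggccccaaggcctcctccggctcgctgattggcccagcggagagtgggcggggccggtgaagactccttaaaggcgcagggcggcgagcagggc
Hspa1l: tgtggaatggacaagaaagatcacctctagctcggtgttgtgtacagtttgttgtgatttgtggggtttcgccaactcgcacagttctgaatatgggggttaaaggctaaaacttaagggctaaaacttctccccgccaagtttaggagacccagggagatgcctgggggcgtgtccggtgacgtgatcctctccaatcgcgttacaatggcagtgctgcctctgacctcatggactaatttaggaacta
Over the 300-base RefSeq windows, which run 50 bases past the start, *Hspa1a* and *Hspa1b* differed at 4 bases: C44T, T47C, T249G and C276T, with the *Hspa1a* base first and positions counted from 1 at the 5′ end. Both held the marked pair from base -104 relative to the start. No pair of units, GAANNTTC or TTCNNGAA, was found in the windows of *Hspa1l*, *Hspa4l*, *Hsf2* or *Dnajb13*. The window of *Hspa1l* held TGACGT, the half-site of the cAMP response element, at base -71.

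Among 32851 RefSeq windows of the same length, 7.86% held GAANNTTC, 8.52% held TTCNNGAA, 15.1% held at least one of them and 7.51% held TGACGT, with both strands searched. Of the matched members *Hsph1* alone had 3 alternating units in a row, a run found in 0.603% of all windows and overlapping the shorter motifs. The run, GAANNTTCNNGAA or its reverse complement, is in capitals in these 30 bases after one of its RefSeq starts (chr5:149636287-149636316, reverse strand).
Hsph1: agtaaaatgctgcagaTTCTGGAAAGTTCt
Windows were matched for 7 of the 10 genes, and those of *Hspa8*, *Hsp90aa1* and *Hsf1* were not shown. A match of letters is a description of the sequence and was not tested for binding.

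The libraries held between 14340665 and 20379950 reads on genes. *Mfn2* had 62.2 to 97.5 FPKM in MFN2 WT and 34.3 to 50.1 in MFN2 cKO, lower in 4 of 4 pairs of one stage and age, although these reads cover the whole gene and not only the deleted exon. The labelled stages were checked against marker genes. The summed FPKM of 14 leptotene and zygotene markers was 249.8 to 350.7 in the L/Z libraries and 354 to 456 in the P libraries. By this sum the L/Z libraries were not the higher ones. By the limma test described below, 5 of the 14 were called higher and 2 lower in P. *Tex15* had 18.5 to 28.1 FPKM in L/Z and 8.47 to 11.8 in P. *Spo11* went the other way, with 4.55 to 14.8 in L/Z and 17.3 to 25.8 in P. The sum of 13 pachytene markers was 2484 to 4119 in L/Z and 2786 to 4261 in P libraries. Much of it was *Ldhc*, at 1494 to 2910 FPKM. Of the 13 markers 3 were called higher and 2 lower in P. *Piwil1* had 16.0 to 40.5 FPKM in L/Z and 168 to 278 in P. The stage markers thus went both ways, and stage names below are those of the labels only. The sum of 15 elongating spermatid markers, none of them at 0 in any library, ran from 162 in P cKO PD 24 to 22162 in L/Z cKO PD 52, and the L/Z libraries at PD 52 stood apart, at 12562 and 22162.

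*Hsp90aa1*, the inducible HSP90 (chr12:110690605-110702728, reverse strand), was by far the most abundant of the 10, at 414 to 593 FPKM. *Hspa8*, the constitutive cytosolic HSP70 (chr9:40800984-40810087, forward strand), *Hspa4l*, an HSP110-type exchange factor of germ cells (chr3:40744495-40796103, forward strand), and *Dnajb13*, an HSP40-like protein of the sperm tail (chr7:100501716-100514960, reverse strand), followed with medians of 88.9, 71.9 and 57.3 FPKM, and their ranges overlapped. The medians of *Hspa1l*, an HSP70 known from spermatids, and of *Hsph1*, the stress-inducible HSP110 (chr5:149614287-149636376, reverse strand), were 10.3 and 9.39. Those of *Hsf1* (chr15:76477422-76501913, forward strand) and *Hsf2* (chr10:57486385-57513135, forward strand) were 8.09 and 5.91. The inducible *Hspa1b* and *Hspa1a* were lowest, at medians of 3.61 and 1.89. By median the heat-inducible pair was thus the least abundant of the HSP70 members here. In the cKO libraries at PD 24, however, *Hspa1l* lay below both, at 1.73 FPKM in L/Z and 0.696 in P. *Hsp90aa1* made up 58.6% to 71.2% of the summed FPKM of the 10 genes.

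**Figure D1:**
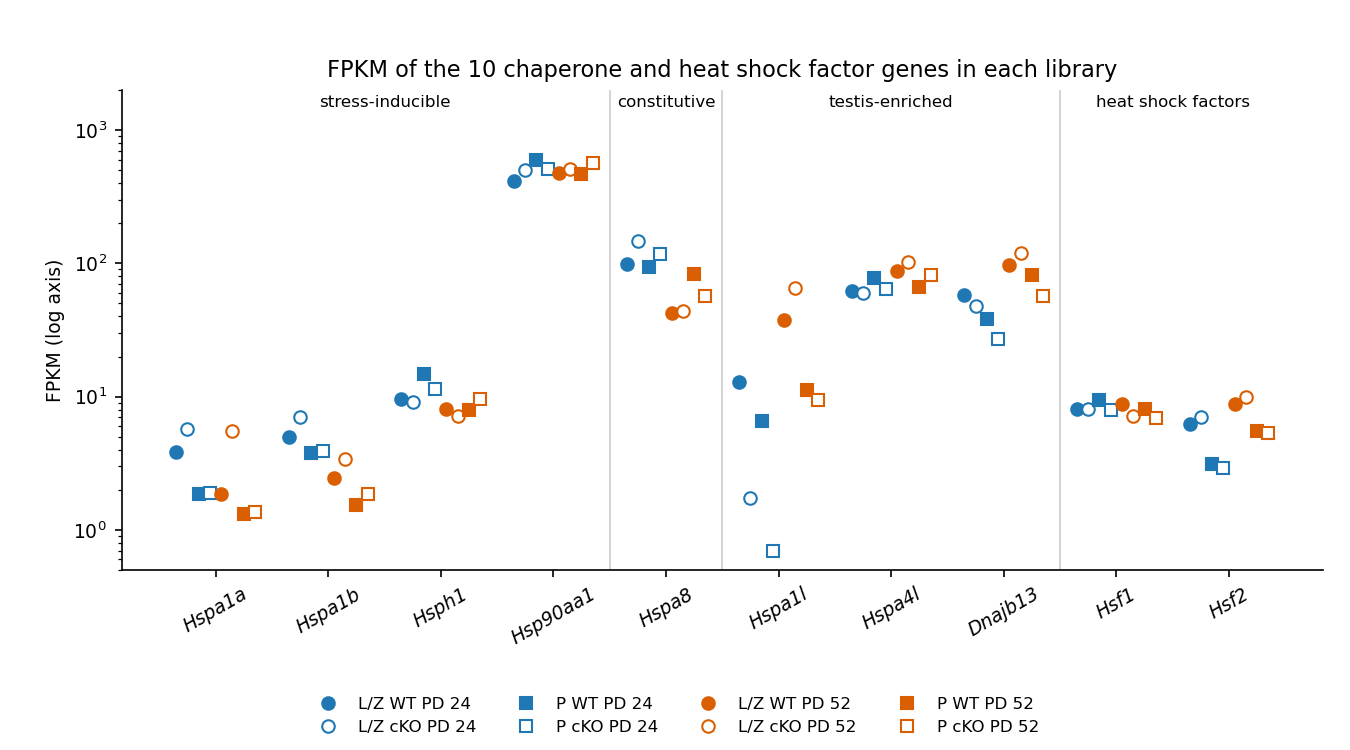
FPKM of the 10 genes (log axis) in each of the 8 libraries, grouped by role, with age as colour, stage as shape and genotype as filled (WT) or open (cKO) symbols. *Hspa1l* spans 0.696 to 65.0 FPKM, whereas *Hsp90aa1* stays between 414 and 593 and *Hsf1* between 6.88 and 9.39.

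How much the genes varied between libraries differed as much as their levels. The SD of log2(FPKM + 1) over the 8 libraries was 1.76 for *Hspa1l*, higher than that of 99.4% of the 21175 genes with FPKM above 1 in any library. At the other end were *Hsf1* with an SD of 0.13, above 1.17% of genes, and *Hsp90aa1* with 0.16, above 3.34%. The remaining genes had SDs from 0.27 (*Hspa4l*) to 0.69 (*Dnajb13*). The highest value of *Hspa1l* was 93.4 times the lowest, against 1.36 times for *Hsf1*.

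Some reads of these genes could belong to near-identical sequences, and how shared reads were counted is not given in the sources used here. Of the 150-base windows of the longest coding transcript, 39.7% for *Hspa1a*, 40.5% for *Hspa1b* and 3.62% for *Hspa1l* also occur in another gene of this trio. For *Hspa8* 55.4% and for *Hsp90aa1* 36.2% of windows occur in other genes of the annotation, whose names all begin with Gm. The values of *Hspa1a*, *Hspa1b*, *Hspa8* and *Hsp90aa1* are thus uncertain where reads were divided or dropped, and the other 5 genes shared no window.

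The first comparison was of age, PD 52 against PD 24, over 4 libraries each. Of the 10 genes 3 rose and 2 fell at PD 52: *Hspa1l*, *Dnajb13* and *Hsf2* were higher, and *Hspa8* and *Hspa1b* were lower. Values were compared with limma on log2(FPKM + 1), with age, stage and genotype as additive terms over all 8 libraries and two-sided p-values adjusted by Benjamini-Hochberg over 21175 genes. The background is high, since 13.5% of all genes tested were called higher and 7.55% lower at PD 52. The median difference of the 10 genes was -0.05, beside 0.00 for all genes. The split depended on the genes and values used. On log2(FPKM + 1) limma called 2857 genes higher and 1598 lower. With protein-coding genes alone, to which all members belong, the same test called 13.8% of 14059 genes higher and 15.2% lower (median -0.11). Limma voom on reads recovered from FPKM called 2341 genes higher and 3230 lower (median -0.19). Voom called 5 members too, with *Hsph1* in place of *Hsf2* (adjusted p = 0.103). Nothing in the labels says that libraries came from separate animals or pools, so these p-values measure only the spread between these libraries. With 1 library per group, that spread includes the interactions of age, stage and genotype. A difference that changes between groups thus widens the intervals and raises the p-values of each term. In bulk RNA, fewer cells of a type and less RNA per cell cannot be told apart.

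*Hspa1l* had 12.8 and 1.73 FPKM in L/Z WT and L/Z cKO at PD 24, and 6.62 and 0.696 in P WT and P cKO. At PD 52 it had 37.3 and 65.0 in L/Z WT and L/Z cKO, and 11.2 and 9.45 in P WT and P cKO. It was higher at PD 52 in 4 of 4 pairs of the same stage and genotype, although L/Z WT at PD 24 lay above both P libraries at PD 52. The fitted difference was 2.34 (SE 0.55, 95% interval 1.05 to 3.63, adjusted p = 0.0253). On the FPKM ratio itself, PD 52 was 37.5 times PD 24 in L/Z cKO (95% counting interval 29.8 to 47.8), from 76 and 2348 reads, and 13.6 times in P cKO (9.44 to 20.2), from 32 and 339 reads. In MFN2 WT the ratios were 2.92 (2.65 to 3.22) in L/Z and 1.70 (1.47 to 1.97) in P. Counting intervals are exact binomial and cover counting error only, because reads were amplified without molecular identifiers.

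The order of the libraries by *Hspa1l* was nearly that of the elongating spermatid markers, which include the protamines and transition proteins that package sperm DNA. The marker sum was 3001, 604, 1485 and 162 in L/Z WT, L/Z cKO, P WT and P cKO at PD 24, and 12562, 22162, 5623 and 2666 in the same order at PD 52. Only L/Z WT at PD 24 and P WT at PD 52 were in reversed order by *Hspa1l*. Of the 15 markers 14 were called higher at PD 52 (median difference 2.58), as were 14 of 16 round spermatid markers (1.56), with sums of 367 to 982 at PD 24 and of 841 to 2234 at PD 52. The part of spermatid RNA in the age differences of *Hspa1l* and *Dnajb13* was not tested.

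**Figure D2:**
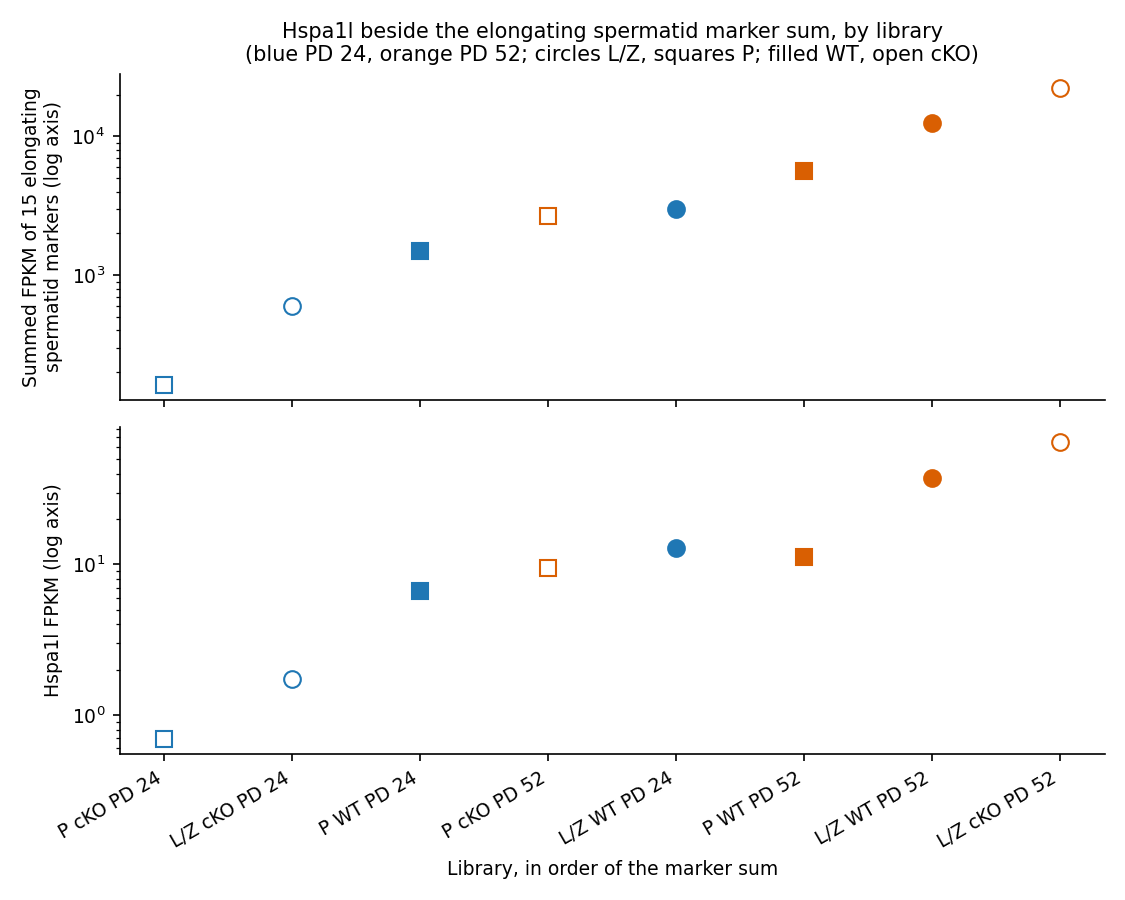
Summed FPKM of 15 elongating spermatid marker genes (top) and FPKM of *Hspa1l* (bottom), both on log axes, with the 8 libraries in order of the marker sum. Both run from P cKO PD 24, at 162 and 0.696, to L/Z cKO PD 52, at 22162 and 65.0, with 1 exchange of neighbours in between.

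*Dnajb13* had 57.8, 47.8, 38.4 and 27.2 FPKM at PD 24 in L/Z WT, L/Z cKO, P WT and P cKO, and 97.6, 119, 81.4 and 56.7 at PD 52. It too was higher at PD 52 in 4 of 4 pairs, and the ages overlapped only because P cKO at PD 52 lay just below L/Z WT at PD 24. The difference was 1.04 (SE 0.17, adjusted p = 0.00934). The third testis-enriched gene, *Hspa4l*, had 61.9, 59.7, 77.5 and 64.6 FPKM at PD 24 and 87.8, 102.4, 66.3 and 82.0 at PD 52 in the same order. It was higher at PD 52 in 3 of 4 pairs, with a difference of 0.35 (interval -0.08 to 0.77, adjusted p = 0.198) that did not pass.

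*Hspa8* had 99.2, 148, 94.1 and 117 FPKM at PD 24 in L/Z WT, L/Z cKO, P WT and P cKO, and 42.3, 43.9, 83.6 and 56.6 at PD 52. Its ages did not overlap. The difference was -1.04 (SE 0.25, adjusted p = 0.028). *Hspa1l* exceeded *Hspa8* per length in a single library, L/Z cKO at PD 52, where the ratio of their FPKM values was 1.48, against 0.00596 in P cKO at PD 24.

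Of the stress-inducible genes *Hspa1b* alone was called. It had 4.95, 7.04, 3.80 and 3.89 FPKM at PD 24 in L/Z WT, L/Z cKO, P WT and P cKO, and 2.43, 3.42, 1.53 and 1.87 at PD 52. Every value at PD 52 was below every value at PD 24, and the difference was -0.84 (SE 0.13, adjusted p = 0.0087). For *Hspa1b* as for *Hspa8*, the share of all genes whose ages lie apart in this way was not counted. Its near-copy *Hspa1a* had 3.87, 5.72, 1.87 and 1.90 FPKM at PD 24 and 1.85, 5.51, 1.32 and 1.37 at PD 52. *Hspa1a* was lower at PD 52 in 4 of 4 pairs, but in L/Z cKO only from 5.72 to 5.51, and its difference of -0.35 (interval -0.85 to 0.14, adjusted p = 0.25) did not pass. The ratio of *Hspa1a* to *Hspa1b* was 1.61 in L/Z cKO at PD 52 and 0.489 to 0.863 in the other 7 libraries.

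*Hsph1* had 9.64, 9.13, 14.8 and 11.4 FPKM at PD 24 in L/Z WT, L/Z cKO, P WT and P cKO, and 8.14, 7.11, 7.91 and 9.66 at PD 52. It was lower at PD 52 in 4 of 4 pairs, with a difference of -0.40 (adjusted p = 0.0994) that did not pass with limma but did with voom (-0.65, adjusted p = 0.0217). *Hsp90aa1* had 414, 500.4, 593 and 509 FPKM at PD 24 and 478, 513, 465 and 567 at PD 52, a difference of 0.01 (interval -0.33 to 0.36, adjusted p = 0.956). The 4 stress-inducible genes thus gave 1 call, downward, with a median of -0.38.

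Of the heat shock factors 1 was called, *Hsf2*. *Hsf1* had 8.14, 8.14, 9.39 and 7.95 FPKM at PD 24 in L/Z WT, L/Z cKO, P WT and P cKO, and 8.73, 7.19, 8.03 and 6.88 at PD 52, a difference of -0.11 (interval -0.42 to 0.19, adjusted p = 0.537). *Hsf2* had 6.25, 7.02, 3.12 and 2.89 FPKM at PD 24 and 8.80, 9.88, 5.57 and 5.36 at PD 52. It was higher at PD 52 in 4 of 4 pairs, by 0.56 (SE 0.14, adjusted p = 0.0265).

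Without both L/Z libraries at PD 52, none of the 5 age calls passed, and no member had an adjusted p below 0.0816 (*Dnajb13*). In these 6 libraries the differences were 1.65 for *Hspa1l*, 1.05 for *Dnajb13*, 0.69 for *Hsf2*, -0.60 for *Hspa8* and -0.85 for *Hspa1b*, and the number of all genes called fell from 4455 to 478. With single libraries left out, *Dnajb13* and *Hspa1b* were called in 8 of 8 fits, while the calls of *Hspa8* (adjusted p up to 0.0952), *Hspa1l* (up to 0.0842) and *Hsf2* (up to 0.118) were each lost in several. Counts of members called for age fell to 2 without L/Z WT PD 24, P cKO PD 24 or P cKO PD 52, and to 3 without L/Z cKO PD 24 or L/Z cKO PD 52.

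**Figure D3:**
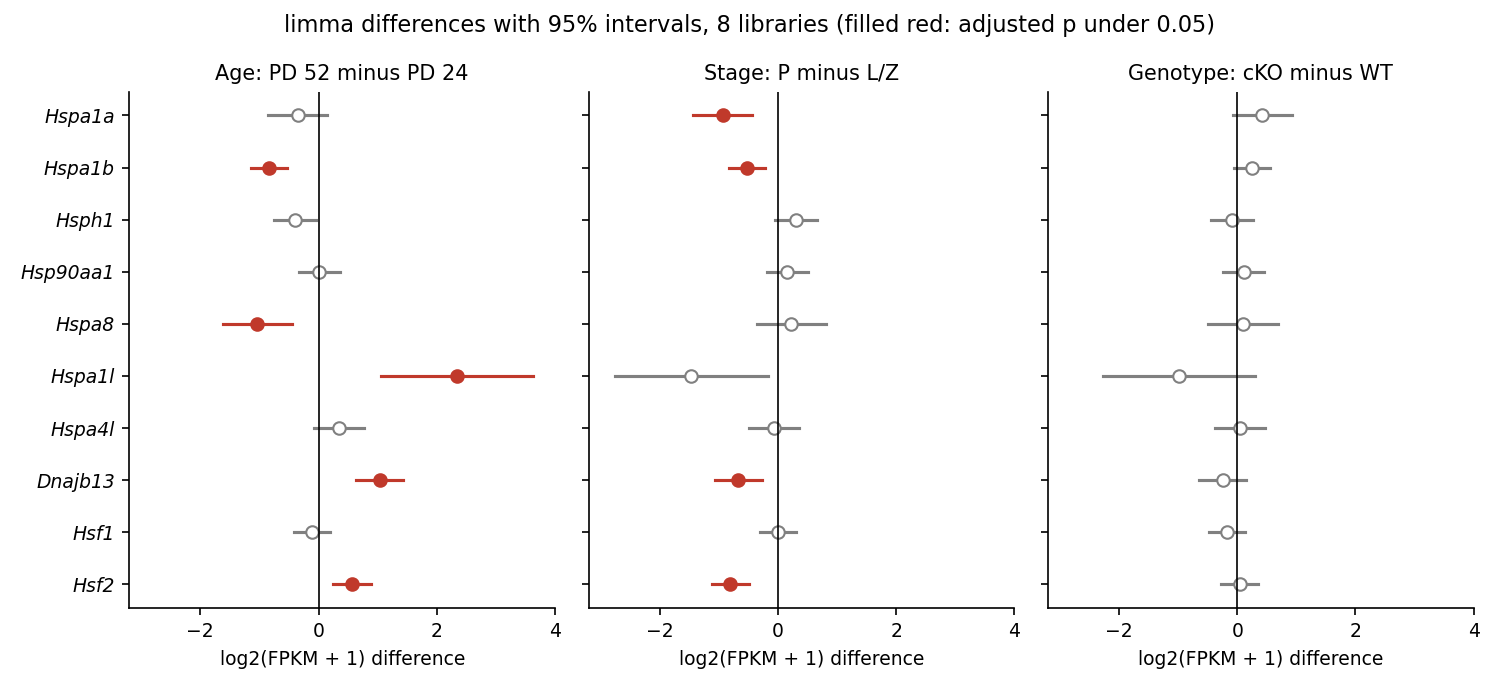
Differences of log2(FPKM + 1) with 95% intervals for the 10 genes, from limma over the 8 libraries, for age (left), stage (middle) and genotype (right). Filled red points passed an adjusted p under 0.05, which 5 did for age, 4 for stage and 0 for genotype.

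Between stages, P against L/Z, 0 of the 10 genes rose and 4 fell: *Hspa1a*, *Hspa1b*, *Hsf2* and *Dnajb13* were lower in the P libraries. At an unadjusted p under 0.05 the counts were 0 and 5, and limma voom on the recovered reads also called 4. Over all genes 11.8% were called higher and 13.6% lower in P, and the median difference was -0.30 for the members and -0.04 for all genes. Each of these genes was lower in P in 4 of 4 pairs. *Hsf2* separated the stages fully, with 6.25 to 9.88 FPKM in L/Z and 2.89 to 5.57 in P libraries, and differed by -0.80 (SE 0.14, adjusted p = 0.00869). The share of all genes that separate the stages so was not counted. *Hspa1a* differed by -0.93 (SE 0.21, adjusted p = 0.0199), with the highest P value, 1.90, just above the lowest L/Z value, 1.85. *Dnajb13* differed by -0.67 (SE 0.17, adjusted p = 0.0281) and *Hspa1b* by -0.52 (SE 0.13, adjusted p = 0.0285), with overlapping ranges. By further median-of-ratios scaling, 38.9% of the stage calls over all genes were upward, with a median of -0.11, and the 4 members stayed called.

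*Hspa1l* was also lower in P in 4 of 4 pairs, at 0.145 to 0.518 times the L/Z value in FPKM, but its difference of -1.46 (interval -2.75 to -0.17) did not pass (adjusted p = 0.0903). With the age and genotype pair as a block it did (adjusted p = 0.0153), and 5 members were then called. *Hsph1* (0.31, adjusted p = 0.176), *Hspa8* (0.23, 0.524), *Hsp90aa1* (0.16, 0.443), *Hspa4l* (-0.07, 0.788) and *Hsf1* (0.00, 0.992) were not called. Without both L/Z libraries at PD 52 no stage call passed, and *Hsf2* came nearest (adjusted p = 0.0572). With single libraries left out, *Hsf2* was called in 8 of 8 fits, and the largest adjusted p-values were 0.0776 for *Hspa1a*, 0.112 for *Dnajb13* and 0.12 for *Hspa1b*. The count fell to 1 without L/Z WT PD 24, P cKO PD 24, L/Z cKO PD 52 or P cKO PD 52.

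Markers of somatic cells moved with stage as well. The summed FPKM of 7 peritubular myoid markers was 204.7 to 316 in L/Z and 55.0 to 88.1 in P libraries, and 6 of the 6 tested were called lower in P. *Actg2* made up much of the 2 L/Z sums at PD 52, with 118 of 204.7 FPKM in WT and 162 of 240.8 in cKO. It had 5.39 to 49.3 FPKM in the remaining libraries. For 11 macrophage markers 8 were called lower in P, and their sums were 124 to 406 in L/Z and 69.1 to 92.4 in P. Much of these sums was *Aif1*, at up to 215 FPKM, and without it they were 31.0 to 191 and 21.6 to 65.8, which overlap, with 7 of 10 called lower. Sertoli cell markers went the other way, with sums of 34.2 to 314 in L/Z and 351 to 945 in P and 12 of 12 called higher. None of the myoid, macrophage or Sertoli markers was at 0 in any library. For elongating spermatid markers 7 of 15 were called lower in P, and for round spermatid markers 12 of 16 lower and 1 higher. Their part in the stage differences was not tested.

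Between genotypes, MFN2 cKO against MFN2 WT, limma called 0 of the 10 genes, 0 had an unadjusted p under 0.05, and voom also called 0. Only 3 of 21175 genes were called at all, which is 0.0142%, while 1445 had an unadjusted p under 0.05. With the stage and age pair as a block 29 genes and 0 members were called. The 3, named after their values were seen, were *Hist1h2al* and *Gm11702*, which are annotated as pseudogenes, and *Klf1*, a transcription factor of red blood cell precursors. *Mfn2* itself, with a difference of -0.87 (lower in 4 of 4 pairs), had an adjusted p of 0.336. The differences of the members with the largest values were -0.99 for *Hspa1l* (interval -2.28 to 0.30, adjusted p = 0.804) and 0.43 for *Hspa1a* (-0.07 to 0.92, adjusted p = 0.784). For *Hspa1b* the difference was 0.25 (-0.06 to 0.56) and for *Dnajb13* -0.25 (-0.65 to 0.15). The intervals of *Hsp90aa1*, *Hsph1*, *Hspa4l*, *Hsf1* and *Hsf2* lay within -0.47 and 0.48, and that of *Hspa8* ran from -0.49 to 0.68.

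Within single pairs, 2 of the 10 genes differed at least 2-fold on the log2(FPKM + 1) scale in any pair, and no pair has a replicate check. *Hspa1l* was lower in MFN2 cKO in both pairs at PD 24. In L/Z its FPKM in cKO was 0.136 times that in WT (95% counting interval 0.105 to 0.172, 597 and 76 reads), and in P 0.105 times (0.0708 to 0.151, 330 and 32 reads). At PD 52 the same ratios were 1.74 (1.63 to 1.86) in L/Z and 0.840 (0.727 to 0.970) in P. The elongating spermatid marker sum fell from 3001 to 604 and from 1485 to 162 in the PD 24 pairs, rose from 12562 to 22162 in L/Z at PD 52 and fell from 5623 to 2666 in P at PD 52. Among all genes, 10.5% in L/Z and 8.08% in P differed at least 2-fold at PD 24.

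*Hspa1a* was higher in MFN2 cKO in L/Z at PD 52, at 2.98 times the WT value (2.31 to 3.88, 82 and 239 reads), where 7.95% of all genes differed at least 2-fold. Its ratios in the other pairs were 1.48 in L/Z at PD 24, 1.02 in P at PD 24 and 1.04 in P at PD 52, and the last 2 had counting intervals that include 1. *Hspa1b* gave 1.42 (1.21 to 1.68) in L/Z at PD 24 and 1.41 (1.08 to 1.83) in L/Z at PD 52. In P it gave 1.02 (0.841 to 1.25) at PD 24 and 1.22 (0.867 to 1.71) at PD 52, with intervals that include 1. The interaction of genotype with stage was not called for *Hspa1a* (-0.81, adjusted p = 0.979) or *Hspa1b* (-0.30, 0.979). In P at PD 52 none of the 10 genes differed at least 2-fold, against 11% of all genes.

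**Figure D4:**
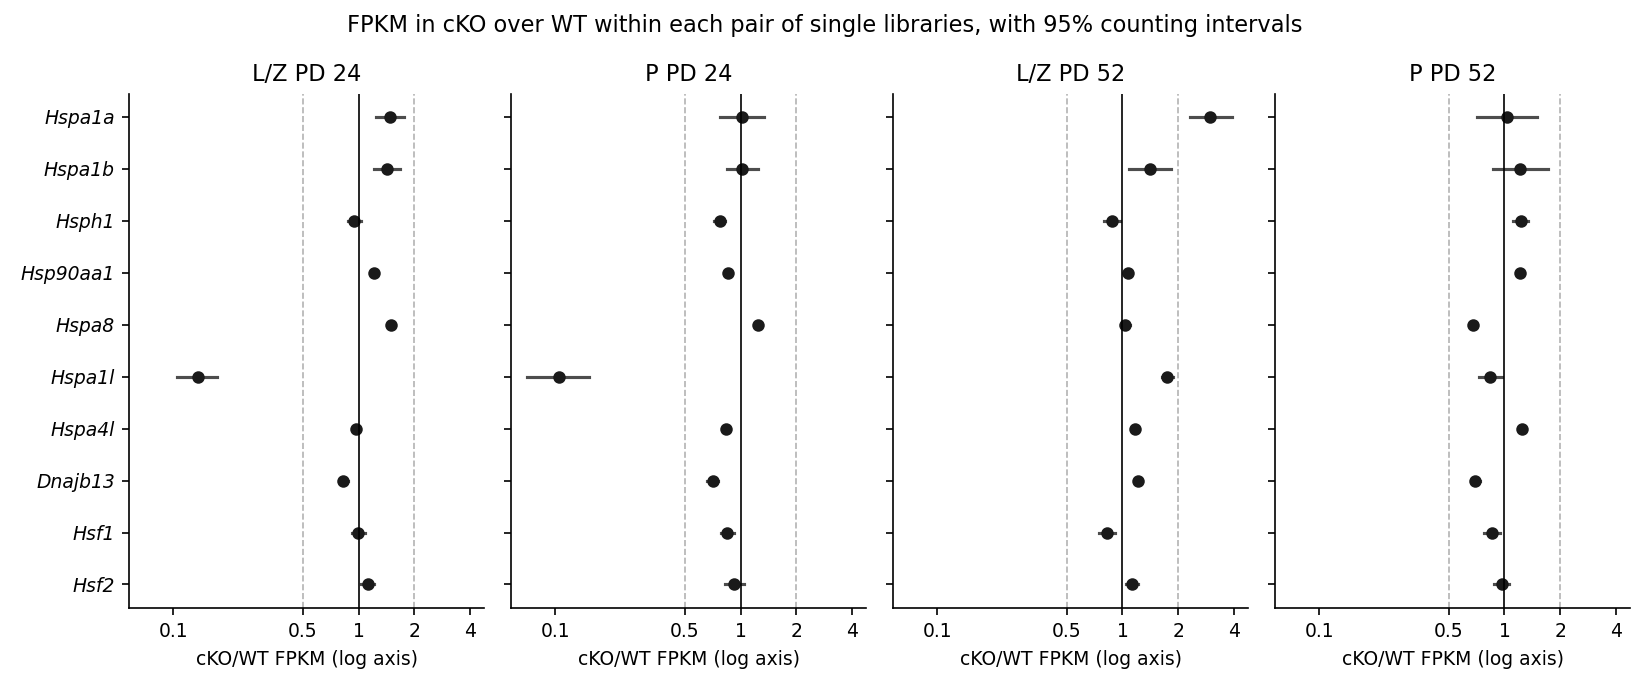
FPKM in MFN2 cKO over MFN2 WT for the 10 genes in the 4 pairs of single libraries (log axis), with exact binomial 95% counting intervals and dashed lines at 0.5 and 2. *Hspa1l* lies at 0.136 and 0.105 in the pairs at PD 24 and at 1.74 and 0.840 at PD 52, and *Hspa1a* at 2.98 in L/Z at PD 52.

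The difference between genotypes was compared between ages with an interaction term. It was called in 0 of the 10 genes, and in 1 of 21175 (0.00472%), *Gm7993*, an annotated pseudogene named after its value was seen, while 1930 had an unadjusted p under 0.05. For *Hspa1l* the interaction was 2.53 (interval 1.04 to 4.02, unadjusted p = 0.0049, adjusted p = 0.268), the only member with an unadjusted p under 0.05. With limma voom on the recovered reads it passed, at 3.31 (adjusted p = 0.0215), and that fit called 229 genes in all. The opposite directions of *Hspa1l* in L/Z at PD 24 and PD 52 are therefore given as values only. Interactions of genotype with stage and of age with stage, added after the data were seen, gave 0 calls over all genes, with 854 and 1062 at an unadjusted p under 0.05.

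For each member the protein-coding genes with the most similar pattern were found by Pearson's correlation of log2(FPKM + 1) over the 8 libraries, among 6678 genes with FPKM of at least 10 in one library or more. The libraries share age, stage and cell makeup, so r is a description only. *Hspa1l* was closest to *Sh3rf2* (r = 0.998) and *Klrb1* (0.998), and 487 genes had r of at least 0.95 with it. *Dnajb13* was closest to *Got1l1* (0.997) and *Tex48* (0.995), with 611 such genes. *Hsf2* followed *Rhno1* (0.997) and *Sqle* (0.996), with 169. *Hspa8* followed *Serinc1* (1.00) and *Ywhab* (0.992), with 45, and *Hspa4l* followed *Ccdc181* (0.998) and *Slain2* (0.996), with 36. The members named so far thus had from 36 to 611 such genes, and no typical count over all genes was taken.

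The stress-inducible genes and *Hsf1* had fewer companions. *Hspa1a* was closest to *Clec3b* (0.989) and to *Cd34* (0.975), a surface protein of blood vessel and stromal cells, with 17 genes at 0.95 or above. *Hspa1b* was closest to *Ptms* (0.986) and *Zfp36l2* (0.984), with 8. *Hsph1* was closest to *Map3k11* (0.975) and *Lemd3* (0.972), with 6, and *Hsp90aa1* to *Lyar* (0.969) and *Art3* (0.948), with 1. *Hsf1* had none, and its nearest genes were *Stk11* (0.852) and *Chtf8* (0.839).

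The other genes of the chaperone network were read from lists. Of 80 further chaperone genes 77 were tested, and 10 were called higher and 9 lower at PD 52, with a median of 0.07. The shares were 13.5% and 7.55% over all genes and 13.8% and 15.2% over protein-coding genes alone. Among 21 HSP40 genes 6 were higher and 1 lower. *Dnajb8*, an HSP40 abundant in testis, had the largest rise (3.11, adjusted p = 0.00829, 0.381 to 64.5 FPKM). Next was *Odf1*, a small heat shock protein of the sperm tail (2.32, adjusted p = 0.00773), which is also one of the elongating spermatid markers. The largest falls were in *Hspb1*, a small heat shock protein (-1.19, adjusted p = 0.0131), and *Hsp90ab1*, the constitutive HSP90 (-0.85, adjusted p = 0.0201).

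Of 9 further HSP70 and HSP110 genes 2 were lower and 0 higher at PD 52. *Hspa2*, the main HSP70 of spermatocytes, had 461 to 770.3 FPKM and no call (0.21, adjusted p = 0.361), so its level was near that of *Hsp90aa1*. *Hspa4* (0.03, 0.89), *Dnajb1* (0.19, 0.334) and *Hsf5*, a germ-cell heat shock factor (0.28, 0.203), were not called either. A list of 16 heat shock response targets, 5 of which are members, held 6 genes lower and 0 higher at PD 52, with a median of -0.38. At an unadjusted p under 0.05, 7 were lower and 0 higher. The 6 were *Hspa8*, *Hspa1b*, *Hspb1*, *Hspd1*, *Chordc1* and *Serpinh1*, the last a collagen chaperone of stromal cells with the largest fall (-1.65, adjusted p = 0.00624). Sertoli cell markers were lower at PD 52 as well: 7 of 12 were called lower and 0 higher (median -1.25), with sums of 279 to 945 at PD 24 and 34.2 to 736 at PD 52. *Hspb1* had the directions of these markers in both age and stage, whereas *Hspa1b* and *Serpinh1* of the 6 were called lower in P. The part of Sertoli cell RNA in the age differences of the targets was not tested.

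**Figure D5:**
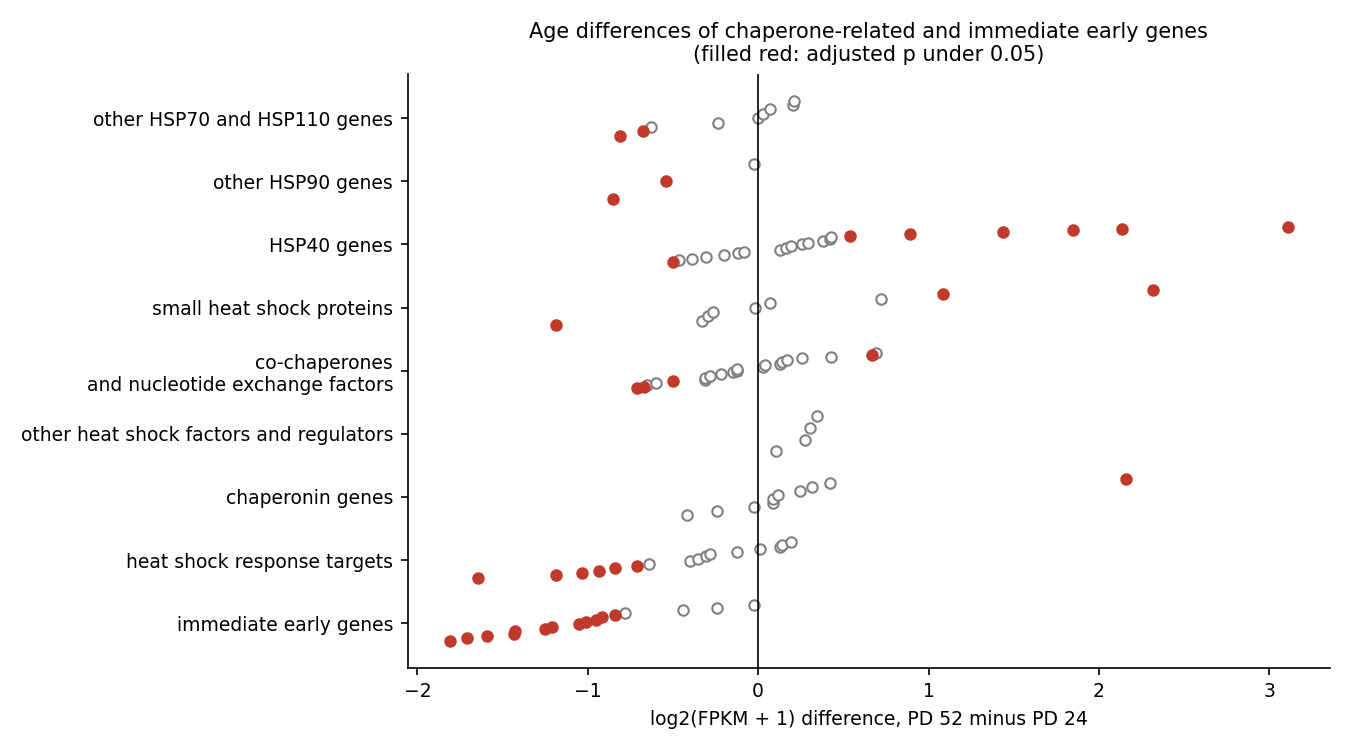
Age differences of log2(FPKM + 1), PD 52 minus PD 24, for the tested genes of the other chaperone lists, the heat shock response targets (5 of 16 are members) and the immediate early genes, each point a gene and filled red where the adjusted p was under 0.05. HSP40 genes hold 6 calls upward and 1 downward, heat shock response targets 6 downward and immediate early genes 12 downward.

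Between stages 6 of the 77 other chaperone genes were higher and 9 lower in P. The shares were 11.8% and 13.6% over all genes, and 16.2% and 17.1% over protein-coding genes alone. *Tomm34* (1.57, adjusted p = 0.00358), a co-chaperone of mitochondrial import, and *Hyou1* (1.48, adjusted p = 0.00422), the HSP110 of the endoplasmic reticulum, rose most. *Odf1* (-1.64, adjusted p = 0.012) and *Dnajc5b* (-1.60, adjusted p = 0.0161), an HSP40 of testis, fell most. The heat shock response targets gave 1 call upward, *Hspb1*, and 3 downward, *Hspa1a*, *Hspa1b* and *Serpinh1*. Between genotypes 0 of the 77 genes and 0 of the 16 targets were called by limma or by voom, with 3 and 1 at an unadjusted p under 0.05.

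Immediate early genes respond within minutes to growth factors and to handling of cells. Of 16 such genes 12 were called lower at PD 52 (median -1.03) and 3 lower in P. *Fos* had 154, 364, 77.2 and 148 FPKM at PD 24 in L/Z WT, L/Z cKO, P WT and P cKO, and 51.5, 154, 37.3 and 112 at PD 52. It was higher in MFN2 cKO in 4 of 4 pairs. Over the 16 genes the median difference between genotypes was 1.02, with 0 called by limma or voom and 13 at an unadjusted p under 0.05. No gene of the marker lists was called between genotypes by limma. The sums of 10 Leydig cell markers were 33.2 to 336 in MFN2 WT and 143 to 826 in MFN2 cKO, with 8 of 10 higher at an unadjusted p under 0.05 and 0 called. For macrophages 8 of 11 (8 of 10 without *Aif1*) were higher and for elongating spermatids 11 of 15 lower in MFN2 cKO at that threshold, with 0 called. None of these markers was at 0 in any library. Their part in the levels of *Hspa1a*, *Hspa1b* and *Hspa1l* was not tested.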

How the data were processed

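Spermatocyte RNA was measured in 8 libraries, 1 per stage, genotype and age. The authors deposited FPKM per gene, scaled to a library size and not log-transformed, with gene lengths. The depth implied by that scale was not the number of reads on genes. It was 18894277 against 16519210 reads in L/Z WT PD 24, and 14617890 against 16808982 in L/Z cKO PD 52. Voom on reads therefore scaled the libraries otherwise, and the part of this in its shifts was not tested. The submitters' processing notes list CASAVA 1.4, Bowtie 0.12.2, mm8 and mm9, but gene coordinates were identical to GENCODE release 21 on GRCm38 for 98.3% of genes and all 10 members. FPKM times gene length fell on whole reads (within 0.01) for 100% of values. Members were matched by name. limma 3.58.1 in R 4.3.3 fitted log2(FPKM + 1), which understates changes of low genes, with a mean-variance trend over 21175 genes with FPKM above 1 in any library. The additive model left 4 residual degrees of freedom. Groups followed the labels, and no p-value was computed within a pair. The study tested single pairs with DESeq2, which was not used here. Members and lists were chosen with earlier results of these data known. Named genes were the members, 2 similar genes per member, 5 fixed chaperones, *Mfn2*, and the 2 largest called rises and falls among the other chaperone genes. Other genes were named after their values were seen. Alternatives were a pseudocount of 0.1, no filter, further median-of-ratios scaling (factors 0.959 to 1.07 over 11566 genes), voom on reads, protein-coding genes only, no trend, the pair as a block and libraries left out. Voom on the lists and macrophage markers without *Aif1* were added after the data were seen. The fits were tested on simulated data. One marker of the pachytene list was not in the table.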

Additional observations from a re-analysis of the deposited data

How the results depend on the processing

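Of 620 values of a member under an alternative, 533 kept direction and side of the threshold, 44 lost a call, 4 gained one and 39 reversed, none of the reversed having been called. Without an FPKM filter, which adds genes to the adjustment, 2326 genes were called for age, 3333 for stage, 1 for genotype and 0 for the interaction of genotype with age, and 3 members for age and 1 for stage. For that interaction a pseudocount of 0.1 gave 54 genes and voom 229, with 1 member. Protein-coding genes alone gave 1 for genotype and 0 for the interaction. Without both L/Z libraries at PD 52, 478 genes were called for age, 942 for stage and 0 for genotype, and 0 members. The pair as a block gave 29 genes and 0 members for genotype and 5 members for stage. That block joined libraries of like labels: the study's methods compare littermates, but which libraries shared a litter is not given in the sources used here. The interaction was not run with the block or without the L/Z libraries. The cause of these shifts was not tested. Voom reversed *Hsp90aa1* for age (-0.19), *Hsf1* for stage (0.013) and, in the interaction, *Hspa1b* (-0.020) and *Hsf2* (-0.11). Without both L/Z libraries *Hsp90aa1* for age (-0.10), *Hspa8* (-0.21), *Hspa4l* (0.22) and *Hsf1* (0.077) for stage and *Hspa4l* for genotype (-0.0027) reversed. With single libraries left out, calls over all genes ranged from 1492 to 6349 for age, 1444 to 5708 for stage, 1 to 5 for genotype and 0 to 0 for the interaction, and members from 2 to 5 for age and 1 to 4 for stage. Differences that reversed in these fits ranged from -0.055 to 0.12 for *Hsp90aa1* in age. In stage they ranged from -0.044 to 0.46 for *Hspa8*, -0.22 to 0.062 for *Hspa4l* and -0.063 to 0.039 for *Hsf1*. In genotype they ranged from -0.20 to 0.015 for *Hsph1*, -0.13 to 0.37 for *Hspa8*, -0.082 to 0.20 for *Hspa4l* and -0.017 to 0.11 for *Hsf2*. In the interaction they ranged from -0.054 to 0.80 for *Hspa1a*, -0.10 to 0.18 for *Hspa1b*, -0.068 to 0.41 for *Hsp90aa1*, -0.014 to 0.54 for *Dnajb13*, -0.24 to 0.0092 for *Hsf1* and -0.14 to 0.18 for *Hsf2*. Members at least 2-fold apart between MFN2 cKO and MFN2 WT within pairs were the same number under each alternative. Low counts limit *Hspa1a* (59 to 301 reads), *Hspa1b* (69 to 350) and *Hspa1l* (32 to 2348).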
